A study of Mus musculus with 8 samples.

Results

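Panx3, Panx1 and Gja1 encode pannexin 3, pannexin 1 and connexin 43, channel proteins that let ions, ATP and small metabolites cross the membranes of bone cells. They were taken by symbol from the authors' deposited table of Yoda1 against DMSO, where each symbol had 1 row, which gave 3 genes of 20972 rows. The cells were MC3T3-E1 subclone 14, an osteoblastic line derived from mouse calvaria and grown from a single clone. They were grown in α-MEM with serum. The Yoda1 group received Yoda1, a synthetic compound that opens the mechanosensitive calcium channel PIEZO1, at 10 µM for 24 h, and the control group received the solvent DMSO. The labels list 4 samples a group and say that the submitters left out DMSO replicate 3 and Yoda1 replicate 1 for batch variation, which leaves 3 a group. The series' design text describes endothelial cells, so the sample labels were followed instead. Nothing in those labels says that the samples came from separate cultures, and p-values then measure only the spread between these samples.

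Connexins of neighbouring cells dock into gap junctions, through which calcium waves and metabolites pass from cell to cell. Pannexins work mostly as channels of a single membrane that release ATP, which then acts on purinergic receptors of the same and nearby cells. Pannexin 3 is known in mouse from osteoblasts and chondrocytes, where it has been described both in the plasma membrane and as a calcium leak channel of the endoplasmic reticulum. Pannexin 1 is the broadly expressed ATP release channel, which caspases can open by cutting its tail, and connexin 43 is the main gap junction protein of osteoblasts and osteocytes.

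The promoters of Panx1 and Gja1 matched the RefSeq promoter table of build GRCm38.p6 (2 of 3 members), which gives 250 bases before the annotated start and 50 from it on. They are shown as the start regions of the 2 members that the table holds. Capitals mark matches to any of 8 short motifs, searched on both strands, namely TGTGGT (RUNX), TGANTCA (AP-1), GGGCGG (GC box), TGACGTCA (CRE), TATAAA (the box bound by TBP), GGAATG (TEAD), GGAAAA (NFAT) and TAATTA (DLX and MSX homeobox factors). The Panx1 window lies at chr9:15045429-15045728 on the minus strand, and the Gja1 window at chr10:56377050-56377349 on the plus strand.
Panx1: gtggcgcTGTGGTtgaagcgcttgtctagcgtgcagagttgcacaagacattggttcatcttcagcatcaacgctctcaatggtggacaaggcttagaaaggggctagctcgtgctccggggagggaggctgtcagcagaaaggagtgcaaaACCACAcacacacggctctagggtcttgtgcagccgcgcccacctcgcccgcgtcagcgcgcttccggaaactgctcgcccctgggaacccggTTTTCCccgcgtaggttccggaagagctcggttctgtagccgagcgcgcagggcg
Gja1: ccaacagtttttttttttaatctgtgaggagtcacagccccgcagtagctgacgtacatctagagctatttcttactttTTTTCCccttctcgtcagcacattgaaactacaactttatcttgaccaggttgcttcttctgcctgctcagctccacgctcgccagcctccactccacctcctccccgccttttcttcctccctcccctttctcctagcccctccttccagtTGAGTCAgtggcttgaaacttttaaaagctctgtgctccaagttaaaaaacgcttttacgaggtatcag

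The Gja1 window held 1 AP-1 match, TGAGTCA, with its first base at position -19 from the start, and 1 NFAT match on the other strand at position -171. An AP-1 match occurred in 7.81% of 32851 promoters of this length, and in 5.54% of the 12997 promoters of tested genes. The Panx1 window held no AP-1 match, but it held RUNX matches on both strands, at positions -243 and -98, and 1 NFAT match on the other strand at position -5. RUNX matches occurred in 16.8% and NFAT matches in 23.4% of all promoters. The other 5 motifs had no match in either window, and no match overlapped another. Base composition differed as well, with 25 CpG and 61.3% G or C in the Panx1 window against 8 CpG and 47.7% in that of Gja1, where the medians of all promoters were 7 CpG and 52.7%. A match is a description of the letters and says nothing of binding.

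Panx3 fell steeply with Yoda1, Gja1 fell moderately, and no change of Panx1 was called. The authors' deposited table put Panx3 at a log2 fold change of -3.94 with a standard error of 0.28 and a DESeq2 adjusted p of 1.48e-44, which is 15.4-fold lower. For Gja1 the authors' deposited table gave -0.57 with a standard error of 0.08 and a DESeq2 adjusted p of 7.96e-12, or 1.49-fold lower with a 95% interval of 1.34 to 1.66. For Panx1 the authors' deposited table gave 0.18 with a standard error of 0.29 and a DESeq2 adjusted p of 0.651, which is a ratio of 1.14 with a 95% interval of 0.771 to 1.67. Of all 14653 genes with an adjusted p, called tested genes here, 44.5% passed the threshold of 0.05 and 22.1% did so as lower; the 2 lower genes of these 3 are read against that background. With the fold changes centred to equal summed counts of both groups, a shift of -0.11 on the log2 scale, the split over all genes moved from 3285 higher and 3233 lower to 4138 and 2500. In bulk RNA, fewer cells that express a gene and less of its RNA per cell cannot be told apart.

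**Figure D1:**
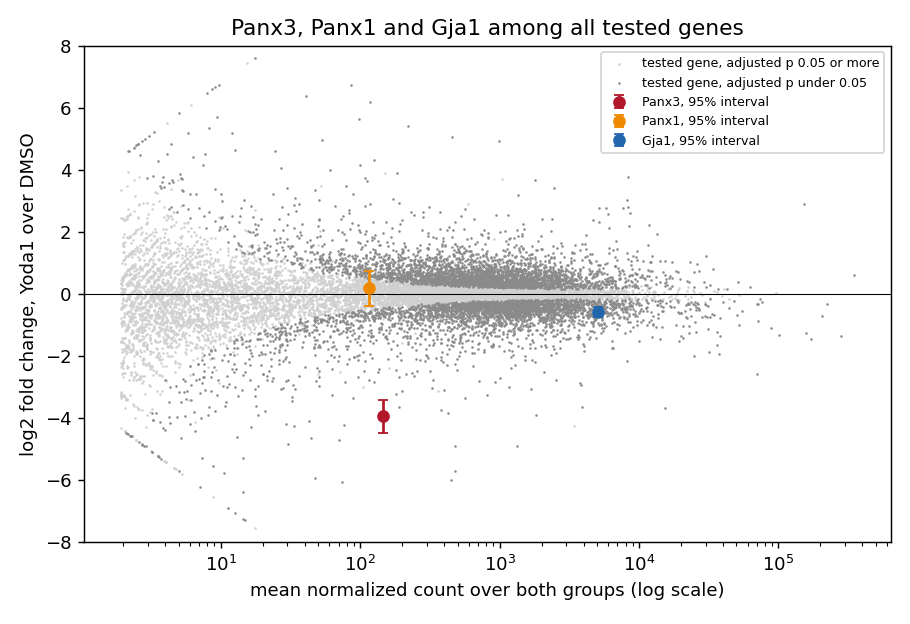
Log2 fold change of Yoda1 over DMSO against the mean normalized count (log scale) for every tested gene, with Panx3, Panx1 and Gja1 in colour and bars for their 95% intervals; 7 tested genes with an absolute log2 fold change above 8 lie outside the plot. Panx3 lies at -3.94, far under the genes of its level, Gja1 at -0.57 among highly expressed genes and Panx1 at 0.18 with a bar that crosses 0.

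The precision of the values came from the authors' fit. Its libraries could be counted from genes with a single read, since 2312 of the 2316 rows below 1.5 times the lowest mean took only 6 values. Of these 6 values, 3 belonged to genes lower and 3 to genes higher with Yoda1, one for each library, and they correspond to size factors between 0.857 and 1.09. Over these 6 libraries the normalized counts summed to 879 for Panx3, 697 for Panx1 and 30447 for Gja1. Values per library were not analysed here, so each gene has 1 mean and 1 fold change, and levels of a group below are those implied by both with equal group sizes. Of the osteoblast markers, 10 of 10 were tested, and Col1a1 and Col1a2 were highest. The phosphatase gene Alpl and the osteocalcin gene Bglap had means of only 47.3 and 4.70 in the authors' deposited table. The chondrocyte markers Col2a1 and Sox9 were at 9605 and 2952 there, and cell identity was not tested. Ptprc, Cd68 and Csf1r of blood cells were at 0.157, 8.72 and 13.8, and Cdh5 and Pecam1 of endothelium at 0.504 and 3.82. The blood cell list had 1 lower gene of 3 tested, Lyz2, at a mean of 97.4.

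The mean of Panx3 was 147 normalized counts, from the authors' deposited table, and its implied level was 275 with DMSO and 17.9 with Yoda1. That is a pooled value of 53.7 normalized counts over 3 Yoda1 libraries against 825 over 3 DMSO libraries. The 95% interval of the fall was 10.6-fold to 22.4-fold. Its log2 fold change was at rank 84 from the lowest of 14653 tested genes, and among 2193 tested genes with a mean within 2-fold of its own, 3 had a lower one. The standard error was larger than usual at this level, with 90.4% of those genes below it and a median of 0.20. Panx3 remained called in all 8 alternative settings, with the largest adjusted p of 0.0109 for a t distribution with 4 degrees of freedom.

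Panx1 lay at a similar overall level, at a mean of 116 by the authors' deposited table, and had implied levels of 109 with DMSO and 123 with Yoda1. Its standard error was above that of 85.3% of 1916 genes with a mean within 2-fold, whose median was 0.22. The 95% interval of the log2 fold change ran from -0.38 to 0.74, so a change within these bounds remains compatible with the estimate. Of those 1916 genes, 41.8% were called. The interval leaves out a fall as steep as that of Panx3. The log2 fold change of Panx3 minus that of Panx1 was -4.13 with a 95% interval of -4.90 to -3.35, computed with the covariance of the estimates taken as 0.

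Gja1 was the most abundant of the 3, its mean by the authors' deposited table being 5075, above 95.6% of tested genes. The implied level was 6072 with DMSO and 4078 with Yoda1. Its standard error of 0.08 was near the median of 0.0814 for 1299 genes with a mean within 2-fold, and 200 of these had a lower log2 fold change. At this level 68.7% of genes were called, against 44.5% over the whole table. The call was lost when the null was set at a log2 change of 0.5 in either direction (adjusted p = 1) and was kept with a t distribution (adjusted p = 0.0236), while the range over the alternatives was 6.76e-12 to 1. Gja1 stood below Panx1 by 0.76 on the log2 scale, with a 95% interval of the difference from 0.18 to 1.34. The difference of Panx3 minus Gja1 was -3.37 with an interval of -3.93 to -2.81.

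Levels of different genes can be compared per length of transcript. Per kb of the principal GENCODE transcript, Gja1 had an implied 1977 normalized counts with DMSO and 1328 with Yoda1. Panx3 had 109 per kb with DMSO and 7.07 with Yoda1, and Panx1 had 19.0 and 21.5. In DMSO the order was therefore Gja1, Panx3, Panx1, with Panx3 at 5.73 times the level of Panx1. With Yoda1 the 2 pannexins changed places, and Panx1 stood at 3.05 times Panx3. The ratio of Gja1 to Panx3 per kb went from 18.2 to 188. These levels have no error of their own, and the transcript of Panx1, at 5732 bases, is longer than those of Panx3 (2531) and Gja1 (3071), although the coding sequences are of similar length, encoding 426, 392 and 382 residues. Per kb of coding sequence instead, Panx3 stood at 2.75 times Panx1 with DMSO, and Panx1 at 6.35 times Panx3 with Yoda1, so the order was kept in both groups while the size of both ratios moved.

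**Figure D2:**
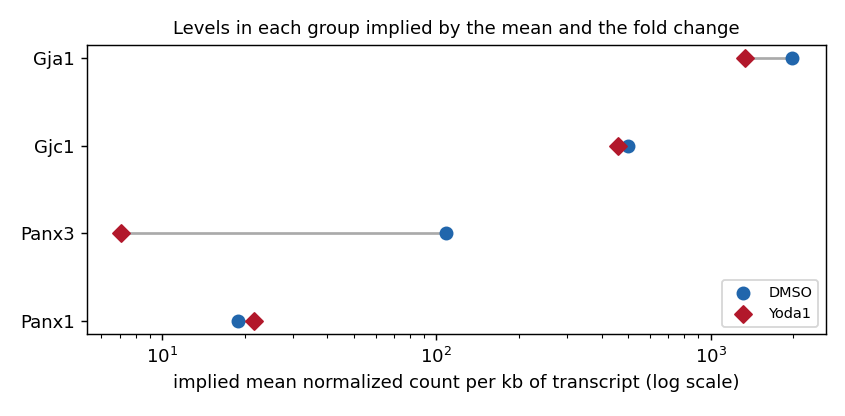
Mean normalized count per kb of transcript (log scale) implied for the DMSO group (circles) and the Yoda1 group (diamonds) by the mean and the fold change, for Gja1, Gjc1, Panx3 and Panx1, with no error shown; Gja1 leads in both groups at 1977 and 1328, and Panx3 crosses from 109 to 7.07, below Panx1 at 21.5.

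Of the same families, the connexin gene Gjb5 stood at -4.37 with a standard error of 1.58 and a DESeq2 adjusted p of 0.0149 by the authors' deposited table, on 23.9 normalized counts summed over all libraries. That call did not hold under the t distribution (adjusted p = 0.133), and its alternatives ranged from 0.0114 to 0.133. By the authors' deposited table Gjc1, a connexin gene known from the conducting heart, had a log2 fold change of -0.11 at a mean of 912, with a standard error of 0.10 and a DESeq2 adjusted p of 0.381. Its log2 fold change was 0.46 above that of Gja1, with a 95% interval of 0.21 to 0.71 for the difference. Per kb of transcript, the implied level of Gja1 was 3.97 times that of Gjc1 with DMSO and 2.88 times with Yoda1. The authors' deposited table had Gja4 at -1.74 with a standard error of 1.65, which was not called (DESeq2 adjusted p of 0.426). Panx2, Gja6 and Gja10 were not tested, with means of 0.504, 1.16 and 0.164 by the authors' deposited table.

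**Figure D3:**
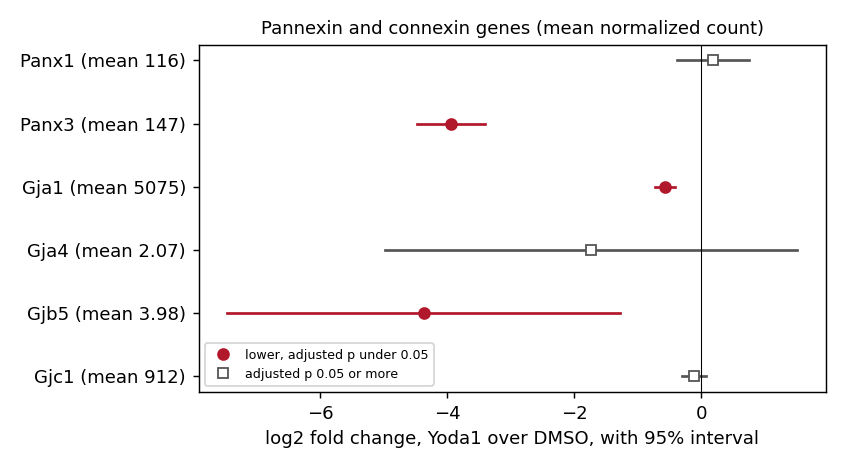
Log2 fold change of Yoda1 over DMSO with its 95% interval for Panx3, Panx1, Gja1, Gja4, Gjb5 and Gjc1, with the mean normalized count after each name; filled circles passed an adjusted p of 0.05 and open squares did not. Panx3 at -3.94 has a narrower interval than Gjb5 at -4.37 but a wider one than Gja1 and Gjc1, and Panx1 and Gjc1 lie near 0.

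Among 20 tested genes that act on or bind connexin 43, 11 were lower, 3 were higher and 6 were not called, where 22.1% of all tested genes were lower and 22.4% higher. The median log2 fold change was -0.32 against -0.01 for all tested genes. Calls are also more frequent among abundant genes, such as the 68.7% at the level of Gja1. With equal summed counts of both groups the higher genes of this list numbered 5. The caveolin gene Cav1 (log2 fold change -0.97, standard error 0.07), the ubiquitin ligase gene Nedd4 (-0.78, 0.09), whose product targets connexin 43, and the N-cadherin gene Cdh2 (-0.84, 0.09) fell in the authors' deposited table. The higher genes in the authors' deposited table included the kinase gene Src (log2 fold change 0.60, standard error 0.10), whose product phosphorylates connexin 43, and Csk (0.36, 0.11), which encodes a kinase that restrains SRC. Tjp1, whose product binds the tail of connexin 43, fell by 0.39 with a standard error of 0.11 and a DESeq2 adjusted p of 0.0015 by the authors' deposited table. Under the t distribution Tjp1 and Csk were not called (adjusted p = 0.084 and 0.0904), nor was Tjp1 with the trend in transcript length and GC removed (0.0843). Both were unchanged by the authors' own class, which also needs an absolute log2 fold change above 0.5.

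Transcription factors known from the Gja1 promoter moved in both directions. Of 8 tested, 3 were higher and 2 lower, against 22.4% and 22.1% of all tested genes, with a median log2 fold change of 0.29. The AP-1 genes Fosl1 (log2 fold change 1.17, standard error 0.13) and Junb (0.60, 0.08) and the T-box gene Tbx3 (1.04, 0.10) rose in the authors' deposited table, while Sp3 (-0.79, 0.14) and Tbx2 (-0.64, 0.19) fell. FOSL1 and JUNB are subunits of AP-1, and TBX2 and TBX3 are known as repressors. Tbx2 was not called under the t distribution (adjusted p = 0.0912).

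Around the pannexins, the genes of the osteoblast factors Runx2 and Sp7 were lower, as Panx3 was. Of 13 tested partners and regulators of pannexins, 7 were lower and 2 higher, against 22.1% and 22.4% of all tested genes, with a median log2 fold change of -0.32. Runx2, whose product is known to bind the Panx3 promoter in mouse, stood at -0.90 (standard error 0.08), the osterix gene Sp7 at -0.52 (0.08) and the calmodulin gene Calm3 at -0.66 (0.06) in the authors' deposited table. The 2 higher genes were Src, given above, and the ATP-gated channel gene P2rx4 (log2 fold change 0.52, standard error 0.08) in the authors' deposited table. P2rx7, whose product acts together with pannexin 1, was not called (-0.32 with a standard error of 0.18 by the authors' deposited table, DESeq2 adjusted p of 0.142). Among the 10 osteoblast markers, which include Runx2 and Sp7, 8 were lower and 1, the osteopontin gene Spp1 (log2 fold change 2.89, standard error 0.08, by the authors' deposited table), was higher, with an implied summed level of 818576 normalized counts with DMSO and 545650 with Yoda1. Within that sum the implied level of Spp1 rose from 36401 to 270684, which offset part of the falls of the lower genes. Col1a1 fell there from 251036 to 91831 and Col1a2 from 400478 to 158460. The 5 chondrocyte markers, of a cell type that also expresses Panx3, had 3 lower members of 3 tested. Their implied sum was 15838 with DMSO and 9337 with Yoda1. Col2a1 and Sox9 were abundant, with means of 9605 and 2952 by the authors' deposited table, and Matn3 was at 29.3. Acan and Col10a1 had means of 0.328 and 0.709 there. Of the osteocyte markers, 2 were tested, and the matrix protein gene Dmp1 was higher (log2 fold change 3.43, standard error 0.10, by the authors' deposited table). The implied sum over the list, 445 with DMSO and 4543 with Yoda1, was nearly all Dmp1, at 417 and 4503. Phex was not called (0.55 with a standard error of 0.39 by the authors' deposited table, DESeq2 adjusted p of 0.257). Mepe and Fgf23 had means of 0.322 and 0.164 there, and Sost had no row. The part of these markers in the falls of Panx3 and Gja1 was not tested.

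Of 11 tested channels and carriers of other routes of ATP release, 4 were higher, 1 was lower and 6 were not called, with a median log2 fold change of 0.15. The share called was close to the 44.5% of all tested genes. The volume-regulated anion channel genes Lrrc8b (log2 fold change 1.07, standard error 0.22), Lrrc8c (0.60, 0.12) and Lrrc8d (0.42, 0.16) rose in the authors' deposited table. Lrrc8a, for the obligatory subunit of that channel, was not called (0.01 with a standard error of 0.10 by the authors' deposited table, DESeq2 adjusted p of 0.938). Slco2a1, a prostaglandin transporter linked to a large anion channel, was higher (1.77, 0.40) and the scramblase gene Ano6 lower (-0.28, 0.07) in the authors' deposited table. Lrrc8d, Slco2a1 and Ano6 were not called under the t distribution (adjusted p = 0.149, 0.0545 and 0.0764). By the authors' own class, Lrrc8d and Ano6 were unchanged.

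Of 8 tested purinergic receptors, on which released ATP and its products act, 2 were higher and 1 lower, no larger a share than the 44.5% called over all genes, with a median log2 fold change of 0.30. Beside P2rx4, the adenosine receptor gene Adora2b rose (log2 fold change 3.02, standard error 0.69) and P2rx6 fell (-2.17, 0.49) in the authors' deposited table, on means of 14.7 and 28.0 and without a call under the t distribution (adjusted p = 0.0552 and 0.0535). Of 6 tested ectonucleotidases, 2 were higher and 2 lower, against 22.4% and 22.1% of all tested genes, with a median of 0.12. Nt5e, which makes adenosine from AMP (2.93, 0.22), and Enpp1, which makes pyrophosphate from ATP (3.04, 0.38), rose, while the ATPase gene Entpd3 (-2.07, 0.16) and the phosphatase gene Alpl (-5.91, 0.67) fell in the authors' deposited table.

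Calcium handling genes of the endoplasmic reticulum, the second place of pannexin 3, were listed together with the store-operated ORAI channels of the plasma membrane. Of 11 tested genes of this list, 4 were higher and 2 lower, against 22.4% and 22.1% of all tested genes. The median log2 fold change was 0.01. The pump gene Atp2a2 (log2 fold change 0.45, standard error 0.06), the IP3 receptor gene Itpr3 (0.49, 0.06) and the store-operated channel genes Orai3 (1.13, 0.21) and Orai2 (0.45, 0.11) were higher in the authors' deposited table, the last without a call under the t distribution (adjusted p = 0.0652). The calcium sensor genes Stim1 (-0.59, 0.11) and Stim2 (-0.81, 0.10) were lower in the authors' deposited table. By the authors' own class, Atp2a2, Itpr3 and Orai2 were unchanged. Other cell-cell junctions had 14 tested genes, of which 5 were higher and 6 lower, against 22.4% and 22.1% of all tested genes, with a median of 0.11. The cadherin gene Cdh11 (-0.71, 0.07) fell with Cdh2, and Jam2 (5.06, 0.22), Nectin1 (0.77, 0.15), Nectin2 (0.69, 0.14) and Afdn (0.75, 0.15) rose in the authors' deposited table.

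**Figure D4:**
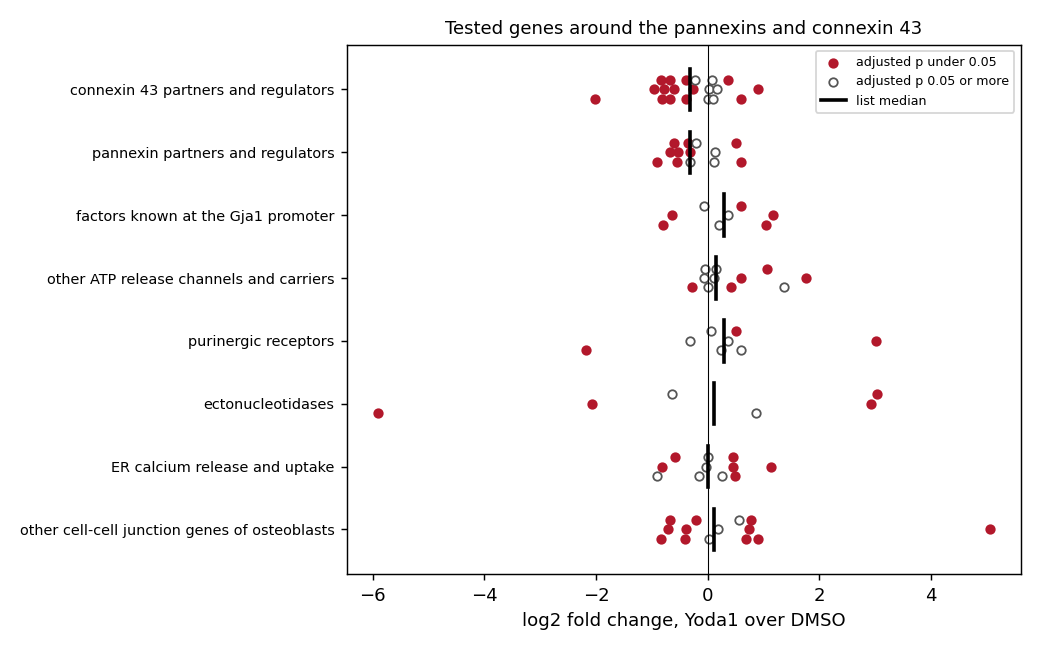
Log2 fold change of Yoda1 over DMSO for each tested gene of 8 lists around the pannexins and connexin 43, 1 point a gene, filled where the adjusted p was under 0.05, with a bar at each list's median. The partners of connexin 43 have a median of -0.32, and the ectonucleotidases are spread from -5.91 to 3.04.

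With 1 comparison and no values per library, likeness of pattern could be measured only as the distance between log2 fold changes among tested genes with a mean within 2-fold. The nearest genes to Panx3 were the keratin gene Krt16 at -4.21 (standard error 0.39) and the transcription factor gene Npas3 at -3.34 (0.99), at distances of 0.27 and 0.60, in the authors' deposited table. The nearest to Gja1 were Nfic and Copg1, both at -0.58, and those of Panx1 were Zfp119b and B9d2, both at 0.18, in the authors' deposited table.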

How the data were processed

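RNA from MC3T3-E1 cultures was sequenced with a TruSeq kit, per the labels' protocols. The submitters' processing notes name Salmon, DESeq2 and GRCm39 but no versions. Per the file headers, the columns are those of DESeq2: the authors' mean normalized count over libraries, which is a signal, the log2 fold change with its standard error, the Wald score, the p-value and the adjusted p. Checked on all rows, the score was the fold change over its standard error, the p-value its normal tail and the adjusted p a Benjamini-Hochberg adjustment over 14653 rows. Only the table's name gives the direction of the fold change. A further column gave the authors' class of up, down or no change. Genes with an adjusted p under 0.05 were called, whatever their fold. The authors' class also required an absolute log2 fold change above 0.5. Called genes with smaller changes, such as Tjp1, Csk, Sox9, Lrrc8d, Ano6, Itpr3, Atp2a2 and Orai2, were therefore unchanged by that class. Tests on single libraries could not be made from a table of 1 comparison, and the authors' comparison took their place, as the design provided.

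Python 3.11.15, pandas 2.3.3 and scipy 1.17.1 gave normal 95% intervals, ratios, group levels implied with 3 libraries a group, levels per kb of GENCODE M21 transcripts, motif matches and 8 alternatives. The recomputed adjustments were tested on fold changes simulated with the deposited standard errors, which leaves those errors themselves untested. A symbol in several rows was taken from the row with the higher mean. The members, lists and alternatives were chosen with earlier results of these data known. Named genes were the 3 members, other pannexin or connexin genes with a row, up to 4 called genes of lowest adjusted p per list, all called genes of a direction with 5 or fewer, and for each member the 2 genes nearest in fold change. Tjp1, P2rx7, Lrrc8a, the marker genes and the chromosomal neighbours were named after their values were seen, and the count of libraries from genes with 1 read was added after seeing the data. Some genes that this rule selects are not reported here.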

Additional observations from a re-analysis of the deposited data

How the results depend on the processing

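Panx3, Panx1 and Gja1 kept their direction in all 8 alternatives, which were 3 centrings, a t distribution with 4 degrees of freedom, a null of 0.5 on the log2 scale in either direction, no filter, a stricter filter on the mean, and removal of the trend with transcript length and GC, for which 86.1% of tested genes had values. Only the centrings and the trend removal alter a fold change, so in the other alternatives the direction could not change. The centrings move all genes alike, the largest shift being -0.11. Panx3 ranged from -3.94 to -3.84 on the log2 scale and kept its call in each. Panx1 ranged from 0.18 to 0.29 and was called in none of the 8, with adjusted p from 0.442 to 1. Gja1 ranged from -0.57 to -0.44 and lost its call, at -0.57, only with the null of 0.5; the cause was not tested. Over the whole table, the t distribution left 1468 lower and 1522 higher genes, and the null of 0.5 left 691 and 702. Of 45 other called genes that the naming rule selects or the text names, 12 lost the call with the t distribution, 24 with the null of 0.5 and 1 with the trend removed. Levels per kb of coding sequence were 4428 for Gja1, 125 for Panx3 and 90.8 for Panx1. With equal summed counts, the implied Yoda1 level of Gja1 was 4386. Leaving out replicates was not run. No paired analysis was possible because the table holds no values per library. The intervals of Panx1 and Panx3 span 1.47-fold and 1.45-fold to either side, and the share of depth in that width was not tested.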

Other observations

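Genes beside the members in RefSeq's GRCm38.p6 gene order, taken up to 3 protein-coding genes to either side where they had a row, showed both called and uncalled values. Beside Panx3, the authors' deposited table had Tbrg1 at a log2 fold change of -0.32 with a standard error of 0.07, Siae at -0.02 with 0.13 and Spa17 at -2.09 with 0.62, of which Tbrg1 and Spa17 were called lower. Near Panx1, Mre11a stood at 0.59 with 0.12 and Med17 at 0.65 with 0.13 by the authors' deposited table, both called higher. Around Gja1, the authors' deposited table had Hsf2 at -0.06 with 0.13 and Msl3l2 at -0.02 with 1.15, neither called, and Tbc1d32 at -0.53 with 0.15 and Serinc1 at -0.41 with 0.12, both called lower. Over all tested genes 44.5% were called, 22.4% as higher and 22.1% as lower. Spa17 and Msl3l2 had means of only 15.9 and 4.56. These neighbours were chosen by position after the members' values were seen, and an effect of position was not tested.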
